A study of Mus musculus with 18 samples.

Results

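MHC class II molecules were followed here in the substantia nigra of mice through 7 genes, chosen by name from the 55270 rows of the deposited table: Cd74, H2-Aa, H2-Ab1, H2-Eb1, H2-DMa, H2-DMb1 and Ciita. All 7 were present, and all 7 reached the level needed for testing. The substantia nigra is the midbrain region that holds dopaminergic neurons. Bulk polyA RNA was sequenced in 18 libraries, 6 from each of 3 groups, with 6 mice per group by the study's design. Intact mice carried the genotype label WT, and no treatment is named for them. AAV-GFP mice had received an adeno-associated virus (AAV) carrying green fluorescent protein, and AAV-SIRT3 mice an AAV carrying SIRT3, a mitochondrial deacetylase. Tissue came from mice of 3 months, a month after the virus. The labels name no strain, no injected dose and no promoter driving the transgene, and intact mice differ from AAV-GFP mice by the administration and the virus together, whose parts cannot be told apart.

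MHC class II proteins carry peptides from the endosome to the cell surface, where CD4 T cells read them. Alpha and beta chains pair around the invariant chain CD74, which blocks the groove until cathepsins degrade it, and the H2-DM heterodimer then exchanges the remaining fragment for a peptide. CIITA, the class II transactivator, is recruited by a factor complex on the X and Y boxes of class II promoters and sets how much of these genes a cell transcribes. In a healthy brain the proteins are found mainly on macrophages, dendritic cells and B cells of the meninges, choroid plexus and perivascular spaces, and resting microglia carry little.

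The class II promoters give the family its common control, so those that RefSeq provides are shown first. RefSeq (GRCm38.p6) start sites were matched for 4 of the 7 genes: H2-Aa, H2-Eb1, H2-DMb1 and, with 2 starts, H2-DMa. No window was matched for H2-Ab1 and Ciita, and none was read for Cd74. The 250 bases before the start are given for the alpha chain gene H2-Aa (chr17:34287824-34288073, minus strand) and the beta chain gene H2-Eb1 (chr17:34305617-34305866, plus strand), in build GRCm38.p6. Capitals mark matches to the Y box core ATTGG with its longer form CTGATTGG, to its reverse CCAAT, and to the X box pattern (AGNNAC followed directly by NNATG).
H2-Aa: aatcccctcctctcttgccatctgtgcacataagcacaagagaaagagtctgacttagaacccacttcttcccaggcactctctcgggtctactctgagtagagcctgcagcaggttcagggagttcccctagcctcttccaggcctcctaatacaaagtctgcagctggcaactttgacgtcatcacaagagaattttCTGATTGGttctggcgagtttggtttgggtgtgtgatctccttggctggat
H2-Eb1: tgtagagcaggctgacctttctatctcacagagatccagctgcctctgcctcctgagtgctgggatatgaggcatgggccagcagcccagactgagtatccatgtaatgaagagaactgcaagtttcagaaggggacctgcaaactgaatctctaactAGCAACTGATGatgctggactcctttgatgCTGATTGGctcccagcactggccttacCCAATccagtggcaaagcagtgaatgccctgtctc
In H2-Eb1 the X box match AGCAACTGATG lay at bases -92 to -82 from the start, CTGATTGG at -62 to -55, and a second core on the other strand, CCAAT, at -35 to -31. In H2-Aa the same CTGATTGG lay at -51 to -44, and these letters of the X box pattern were not in the window. An X box spelled otherwise would be missed by this pattern, so the missing match does not show that the promoter lacks one. H2-DMb1 held AGTAACTGATG at -95 to -85 and ATTGG at -61 to -57. The gap between the X box match and the Y core was 22 bases in H2-Eb1 and 23 in H2-DMb1, so the 2 genes share the spacing within 1 base. H2-DMa held ATTGG once, at -198 to -194 of its second start, and no match before its first. Its 2 windows (chr17:34122582-34122831 and chr17:34125268-34125517) lie in the upstream part of the annotated gene. No window further downstream was read, so these boxes may lie outside what was searched. The search covered both strands, and CTGATTGG contains ATTGG. Of 32851 mouse promoter windows of the same length, 33.85% held ATTGG, 3.829% CTGATTGG, 2.6% the X box pattern, 1.601% the octamer ATGCAAAT (in none of the class II windows) and 1.078% both that pattern and ATTGG. These matches are descriptions of letters, not measured binding.

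H2-Ab1 (chr17:34257689-34269419, plus), H2-Aa (chr17:34282744-34287823, minus) and H2-Eb1 (chr17:34305867-34316674, plus) lie close together in the mouse MHC, in GENCODE annotation of the same build. H2-DMa (chr17:34119541-34139101, plus) and H2-DMb1 (chr17:34153072-34160230, plus) lie beside them, Ciita is on chromosome 16 (chr16:10480059-10528418, plus) and Cd74 on chromosome 18. The libraries were stranded, but the strand setting of the counting is not given in the sources used here, so reads of H2-DMa and Brd2, of Ciita and Dexi, and of H2-Eb1 and its antisense gene Gm20513 may not be separated. Over the 18 libraries, H2-DMa had a Pearson r of -0.0528 with Brd2, and Ciita of -0.572 with Dexi (-0.307 with group means removed). Dexi was itself higher in AAV-SIRT3 than in intact mice (0.24, limma adjusted p = 0.00864). H2-DMb1 has a close paralog, H2-DMb2, and how reads were shared between them is uncertain.

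The values are read counts per gene divided by 1 size factor per library, here called normalised reads. Libraries held 47182529 to 64728587 reads assigned to genes. Behind the class II values stood 271 to 1030 reads per library for Cd74, 91 to 547 for the 3 chain genes, 352 to 541 for H2-DMa, 62 to 115 for H2-DMb1 and 23 to 97 for Ciita, whose lowest library carries a counting error of 20.9%. Sirt3, the delivered gene, averaged 1824 ± 66.3 normalised reads in the intact group, 1775 ± 92.4 with AAV-GFP and 1937 ± 79.4 with AAV-SIRT3 (SD, n = 6 each). Its log2 difference between AAV-SIRT3 and AAV-GFP was 0.13 (limma adjusted p = 0.183; exact two-sided permutation p = 0.0152, where 0.00216 is the smallest possible), and the labels do not say which species' SIRT3 was delivered. Th, the dopamine synthesis enzyme that marks the region's neurons, averaged 5729, 4711 and 5756 normalised reads in the 3 groups. Some libraries stand apart. AAV-SIRT3 replicate 6 had the highest Cd74, H2-Aa, H2-Ab1, H2-Eb1 and H2-DMa of all 18, and intact replicates 1, 3 and 5 were low in thalamic genes (mean z-scores of -2.03, -1.61 and -1.73 over 12 genes). Values without AAV-SIRT3 replicate 6, and with the thalamic score as a covariate, are given for the class II genes, and for list counts where the first changes them. In bulk tissue, fewer cells of a type and less RNA per cell cannot be told apart.

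Within a library, Cd74 was the most abundant of the 7 genes once values were divided by length. Per kilobase of exon it averaged 312 ± 123 normalised reads (SD, n = 18 libraries), and it stood above the next gene in 18 of 18 libraries. H2-Eb1 followed with 134 ± 48.3 per kilobase and H2-DMa with 121 ± 14.3, and their order held in only 11 of 18 libraries, so these neighbours did not differ beyond their spread. H2-Ab1 (92 ± 35.6) was below H2-DMa in 17 of 18 libraries, and H2-Aa (80 ± 32.5) below H2-Ab1 in 17 of 18. H2-DMb1 stood at 55.5 ± 11.6 per kilobase, below H2-Aa in 15 of 18. Ciita was last in every library, at 6.63 ± 1.94 per kilobase. Lengths are the union of all annotated exons of a gene (3798 bases for H2-Aa, 2568 for H2-Ab1), not of the transcripts expressed here. The order depends on them. Before division H2-Aa averaged 303.7 normalised reads and H2-Ab1 236.2. Cd74 was then below H2-DMa in some libraries, such as AAV-GFP replicate 4 (354 against 460.4).

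Across the 3 groups few differences in class II genes were called, while mice of the same group differed widely, as in the AAV-SIRT3 group where Cd74 spanned 291.3 to 1159 normalised reads. Of the 7 genes, 0 were called between AAV-GFP and intact mice (limma, Benjamini-Hochberg adjusted p under 0.05), where 1.84% of the 19443 genes tested were called (0.823% higher and 1.02% lower). Between AAV-SIRT3 and intact mice 1 of 7 was called, Ciita, which was lower; there 21.7% of all genes were called, 11.3% higher and 10.3% lower. Between AAV-SIRT3 and AAV-GFP mice 0 of 7 were called, beside 0.113% of all genes (0.036% higher and 0.0771% lower). At an unadjusted p under 0.05 the counts were 0, 1 and 1 of 7, against 19.07%, 34.91% and 15.24% of all genes. On the recovered reads, edgeR called 0, 0 and 0 of 7 and DESeq2 called 0, 1 and 0. In none of the 3 comparisons did any of the 7 genes separate the groups without overlap, which 1.86%, 9.33% and 0.751% of all genes did. The median log2 fold change of the 7 was -0.05, -0.23 and -0.15, beside medians of 0.0007, -0.0049 and -0.0041 over all genes. The share of class II genes called was thus at or below the background in each comparison. The comparisons share their control libraries and are not independent.

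**Figure D1:**
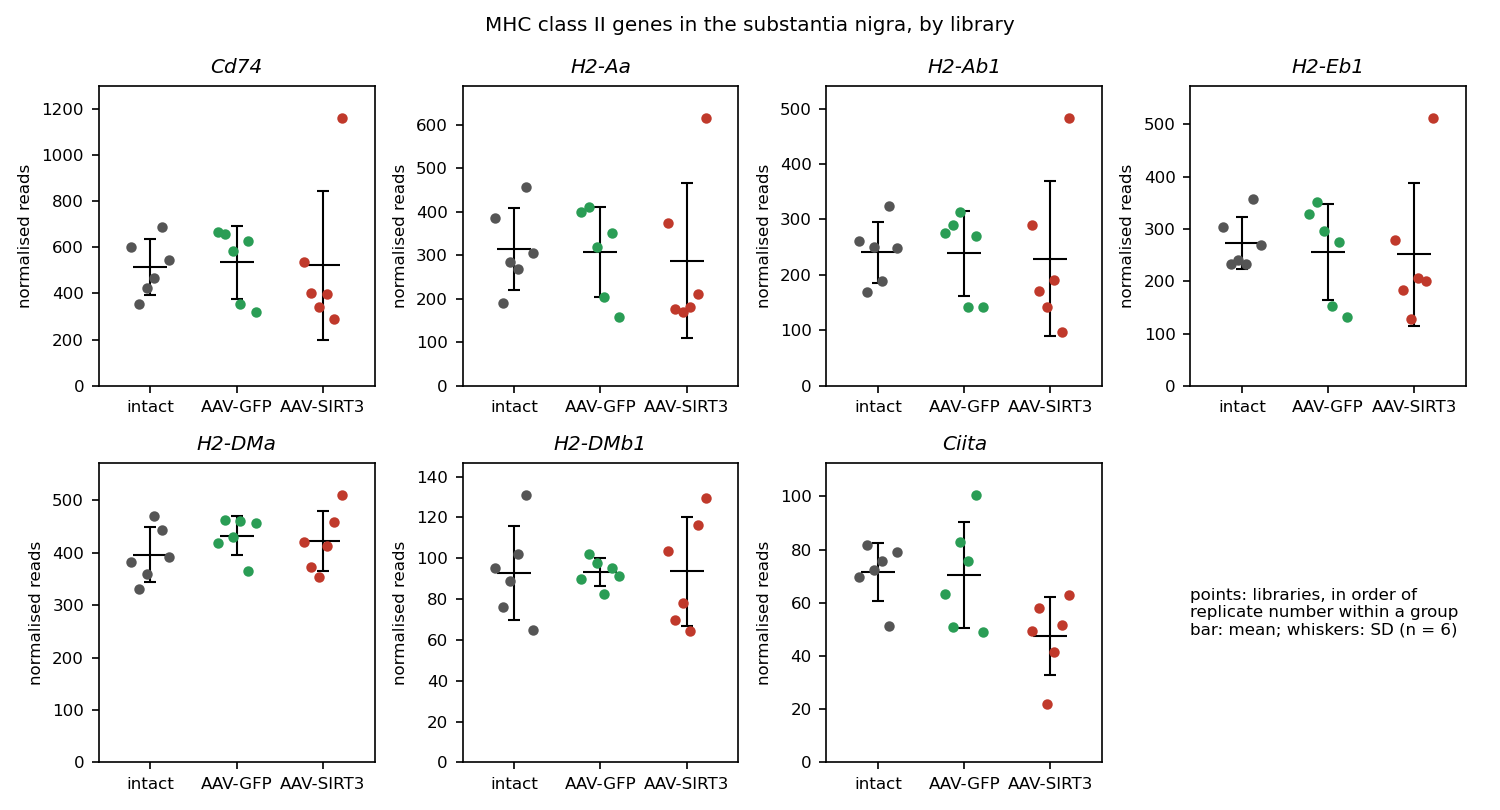
Normalised reads (y axis, linear from 0) of each class II gene in the intact, AAV-GFP and AAV-SIRT3 groups; points are libraries in order of replicate number, the bar is the mean and the whiskers the SD (n = 6). The groups overlap in every panel, and AAV-SIRT3 replicate 6 is the highest point for Cd74, H2-Aa, H2-Ab1, H2-Eb1 and H2-DMa.

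The invariant chain gene Cd74 had a lowest, median and highest value of 355.3, 505.6 and 686.8 normalised reads in intact, 318.2, 605.8 and 667.4 in AAV-GFP and 291.3, 400.7 and 1159 in AAV-SIRT3 mice. The single value of 1159 belonged to AAV-SIRT3 replicate 6, the next of that group was 535.3, and the 3 groups overlapped over nearly their whole ranges. Means were 513.7 ± 121.6, 534.6 ± 156.9 and 521.2 ± 323 (SD, n = 6 each). The log2 fold change was 0.03 (95% interval -0.51 to 0.57; adjusted p = 0.965) for AAV-GFP against intact and -0.11 (-0.65 to 0.43; adjusted p = 0.790) for AAV-SIRT3 against intact in limma. Without AAV-SIRT3 replicate 6 the AAV-SIRT3 mean was 393.6 ± 91.49 (n = 5), and the difference from intact was -0.38 (limma adjusted p = 0.204).

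The alpha and beta chain genes behaved like Cd74. H2-Aa, the alpha chain of the I-A molecule, ran from 189.5 through a median of 295 to 457.5 normalised reads in intact, from 159.1 through 335.2 to 411.2 in AAV-GFP and from 169.6 through 197.2 to 615.5 in AAV-SIRT3 mice. In the last group 4 libraries lay between 169.6 and 211.8, below 5 of the 6 intact libraries, while replicates 1 and 6 stood at 373.4 and 615.5. H2-Aa differed by -0.06 (adjusted p = 0.931), -0.26 (adjusted p = 0.565) and -0.19 (adjusted p = 0.797) on the log2 scale for AAV-GFP against intact, AAV-SIRT3 against intact and AAV-SIRT3 against AAV-GFP (limma). The 95% interval of the AAV-SIRT3 difference from intact was -0.87 to 0.35.

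H2-Ab1, the beta chain of I-A, ran from 169.5 through 249.2 to 324 normalised reads in intact, from 141.4 through 272.4 to 314 in AAV-GFP and from 97.83 through 181.7 to 482.7 in AAV-SIRT3 mice. The lowest and the highest value of all 18 libraries were both in the AAV-SIRT3 group. H2-Eb1, the beta chain of the I-E molecule, ran from 232.8 through 255.3 to 358.2 in intact, from 131.6 through 286 to 352 in AAV-GFP and from 128.7 through 203.2 to 512 in AAV-SIRT3 mice. Every intact library stood at 232.8 or above, while 2 AAV-GFP and 4 AAV-SIRT3 libraries lay below that. In the AAV-SIRT3 comparison with intact mice H2-Ab1 differed by -0.23 (95% interval -0.83 to 0.37) and H2-Eb1 by -0.24 (-0.80 to 0.31), with limma adjusted p of 0.606 and 0.552. Without AAV-SIRT3 replicate 6 the 3 chain genes stood at -0.51, -0.49 and -0.48 against intact, with limma adjusted p of 0.167, 0.186 and 0.158, so none was called. With the thalamic score as a covariate their differences from intact in AAV-SIRT3 mice were 0.32, 0.28 and 0.16, and that of Cd74 was 0.32, so the sign turned and none was called. H2-Ea, the alpha partner of H2-Eb1, had at most 4.50 normalised reads and was at 0 in 16 of 18 libraries.

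The H2-DM genes, which encode the peptide editor, varied less. H2-DMa ran from 330 through 386.4 to 470.5 normalised reads in intact, from 365.3 through 443.7 to 463.2 in AAV-GFP and from 354.5 through 416.9 to 510.8 in AAV-SIRT3 mice. Its highest value was 1.55 times its lowest over all 18 libraries, where that ratio was 3.98 for Cd74, 3.87 for H2-Aa, 4.93 for H2-Ab1 and 3.98 for H2-Eb1. The difference was 0.13 (95% interval -0.07 to 0.33; adjusted p = 0.483) for AAV-GFP and 0.09 (-0.11 to 0.29; adjusted p = 0.540) for AAV-SIRT3 against intact (limma), the narrowest intervals of the 7 genes. H2-DMb1 ran from 64.7 through 92.02 to 131.2 in intact, from 82.55 through 93.41 to 102.1 in AAV-GFP and from 64.49 through 90.98 to 129.4 in AAV-SIRT3 mice. The AAV-GFP libraries fell inside the range of both other groups, and the 3 means were 93 ± 23, 93.15 ± 6.8 and 93.64 ± 26.6.

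In AAV-SIRT3 against AAV-GFP mice the 6 genes described so far differed by -0.19 to -0.04 on the log2 scale, with limma adjusted p of 0.797 to 0.943, and none was called.

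Ciita, the transactivator, was the 1 gene called. It ran from 51.34 through 74.11 to 81.59 normalised reads in intact, from 49.11 through 69.6 to 100.7 in AAV-GFP and from 21.92 through 50.57 to 63.01 in AAV-SIRT3 mice. Of the intact libraries 5 stood above every AAV-SIRT3 library, the other being intact replicate 5 at 51.34, and AAV-SIRT3 replicate 3 was lowest of all at 21.92. Means were 71.66 ± 10.9, 70.47 ± 19.9 and 47.61 ± 14.6 (SD, n = 6 each). Against intact mice Ciita fell by 0.64 on the log2 scale in AAV-SIRT3 mice (95% interval -1.11 to -0.17; limma adjusted p = 0.0486), with the AAV-SIRT3 library higher in 3 of 36 pairs of libraries. Against AAV-GFP mice the difference was -0.58 (-1.05 to -0.11; limma adjusted p = 0.235), with 7 of 36 pairs higher, and it was not called. The call against intact rests close to the threshold: it was lost in 12 of 18 fits that left out 1 library (adjusted p 0.0355 to 0.119; -0.43 without AAV-SIRT3 replicate 3) and in 7 of 14 other settings, while the direction held in all of them. In the same comparison 8 of 12 thalamic genes were called higher (median 0.56; summed levels 67990 to 123100 in intact and 101000 to 129700 in AAV-SIRT3 libraries). With the thalamic score as a covariate the Ciita difference was -0.70 (limma adjusted p = 0.140), so the call was lost and the direction kept. The chain genes, which CIITA is known to drive, were not called in that comparison.

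**Figure D2:**
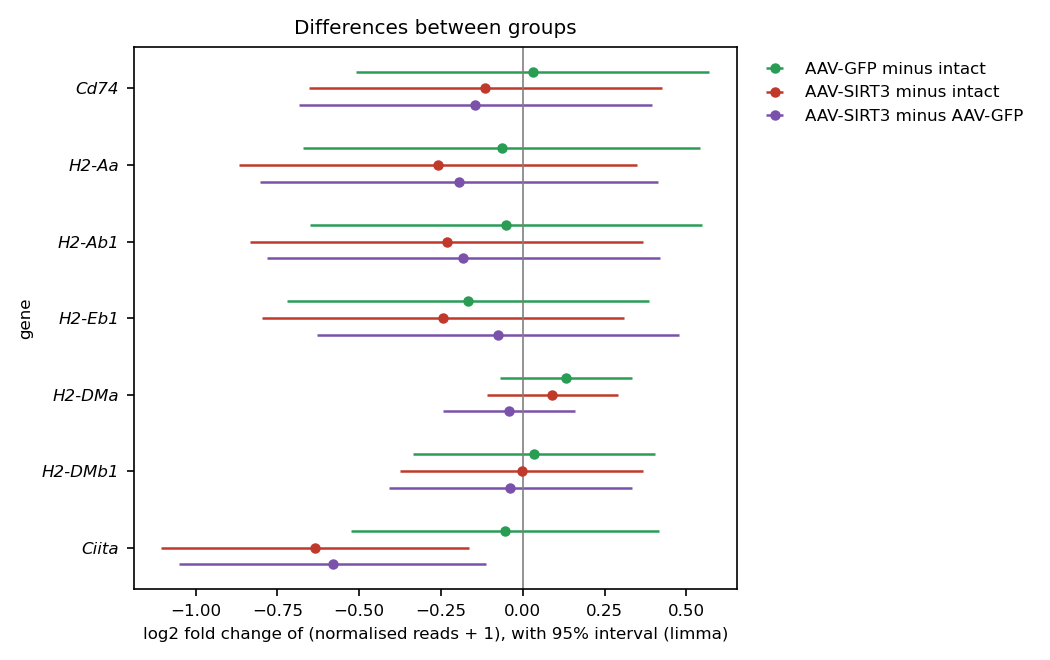
Log2 fold change of normalised reads plus 1 (x axis) with its 95% interval from limma for each class II gene (y axis) in 3 comparisons, marked by colour. The interval of Ciita lies below 0 in both AAV-SIRT3 comparisons, those of the other 6 genes span 0, and H2-DMa has the narrowest.

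Variation between mice of 1 group was large for this family. After group means were removed, the SD on the log2 scale was 0.533 for Cd74, 0.597 for H2-Aa, 0.587 for H2-Ab1 and 0.540 for H2-Eb1, where the median over the 15245 genes with a mean of at least 50 normalised reads was 0.116. Those 4 SDs were larger than the SDs of 98.4% to 99.0% of these genes. Ciita (0.410) exceeded 96.2% of them and H2-DMb1 (0.316) 90.6%, while H2-DMa (0.173) exceeded 71.2%. Counting error alone is small beside this for Cd74 and the 3 chain genes, given their read numbers above.

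The 4 genes Cd74, H2-Aa, H2-Ab1 and H2-Eb1 rose and fell together from mouse to mouse. Over the 18 libraries, the 6 pairs among them had a Pearson r of 0.879 to 0.946 and a Spearman rho of 0.886 to 0.963, with adjusted p of 4e-05 to 7e-05 for r (permutation test, 100000 permutations; 21 pairs of class II genes tested). With the 2 farthest libraries left out r was 0.835 to 0.954, and within single groups of 6 libraries it was 0.851 to 0.988. The summed value of the 4 genes was highest in AAV-SIRT3 replicate 6 and intact replicate 5, and lowest in AAV-GFP replicate 6 and AAV-SIRT3 replicates 3 and 5 (ranks 1, 2, 18, 17 and 16 of 18). High and low mice thus occurred in both AAV groups. The ratio of H2-Aa to H2-Ab1, the 2 chains of I-A, had a median of 1.28 and ran from 0.953 to 2.16.

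The peptide editor and the transactivator followed less closely. H2-DMb1 had an r of 0.386 to 0.645 with the 4 genes, with H2-Aa the closest (r = 0.645, rho = 0.655, permutation adjusted p = 0.0121; r = 0.611 without the 2 farthest libraries). H2-DMb1 and H2-DMa, the 2 chains of the DM heterodimer, had an r of 0.592 and a rho of 0.626 (permutation adjusted p = 0.0263 for r; r = 0.465 without the 2 farthest libraries). Within groups of 6 libraries that r was 0.609 among intact, -0.163 among AAV-GFP and 0.798 among AAV-SIRT3 mice. H2-DMa had an r of 0.176 to 0.352 with the 4 genes, and no such pair passed the threshold. Within AAV-GFP its sign was the other way (-0.503 to -0.368), against 0.312 to 0.591 in intact and 0.497 to 0.866 in AAV-SIRT3. Ciita had an r of 0.286 to 0.390 with them (permutation adjusted p 0.2 to 0.304), and its sign differed by group: -0.869 to -0.751 among the intact libraries, 0.189 to 0.295 in AAV-GFP and 0.419 to 0.713 in AAV-SIRT3 (6 libraries each; whether these differ between groups was not tested).

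The 8 genes most like the class II family across libraries were named by their correlation with the mean z-score of the 7 genes, out of 15238 genes with a mean of at least 50 normalised reads. They were Crabp2 (r = 0.909), a retinoic acid binding protein, Dcn (0.882), the matrix proteoglycan decorin, Gstm2 (0.871), a glutathione transferase, Rcn3 (0.87), a calcium-binding protein of the endoplasmic reticulum, Serping1 (0.867), the C1 inhibitor, Nupr1 (0.866), a stress-induced chromatin protein, Fcgrt (0.862), the neonatal Fc receptor, and Ptgds (0.858), a prostaglandin D synthase. With group means removed these r were 0.854 to 0.914, and without AAV-SIRT3 replicate 6 they were 0.81 to 0.92. These are correlations picked as the highest of many over 18 libraries that share tissue and dissection, and they are descriptions with no test. For single genes the closest were Ppic to Cd74, Dcn to H2-Aa, Smoc1 to H2-Ab1, Crabp2 to H2-Eb1, Psmg4 (r = 0.78) to H2-DMa, Rcn3 (0.833) to H2-DMb1 and Ptpn21 (0.82) to Ciita.

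**Figure D3:**
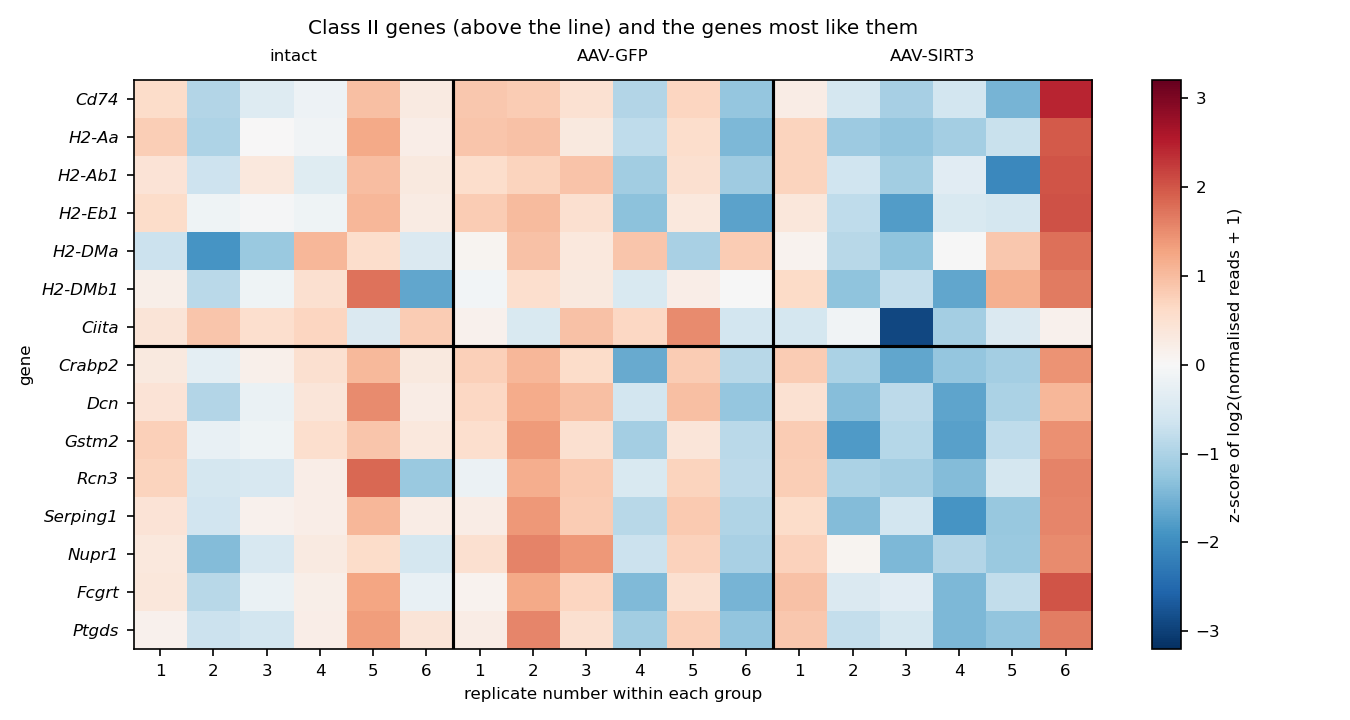
Z-scores over 18 libraries of log2 normalised reads plus 1 for the 7 class II genes (above the horizontal line) and the 8 genes most like them (below), with replicate numbers along the x axis and groups divided by vertical lines. The first 4 rows and the lower block share their high libraries (AAV-SIRT3 replicate 6, intact replicate 5, AAV-GFP replicate 2) and low ones, while the H2-DMa and Ciita rows differ from them.

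Crabp2, Dcn and Ptgds mark fibroblasts of the leptomeninges, the membranes that cover the brain surface. A list of 16 leptomeningeal fibroblast genes was chosen after these values were seen. It holds those 3 genes, which prompted it, so a high correlation was built into it in part. It had a mean z-score that followed that of the 4 genes Cd74, H2-Aa, H2-Ab1 and H2-Eb1 with an r of 0.886 (0.900 with group means removed, 0.901 without the 2 farthest libraries, 0.913 without AAV-SIRT3 replicate 6). With Crabp2, Dcn, Ptgds and Gjb2, the 4 of its genes named by likeness to class II genes, left out, r over the other 12 was 0.866 (0.882 with group means removed); this remains a description of a list chosen on these data. For the border macrophage list (Mrc1, Cd163, Lyve1, Pf4 and 8 others), which marks macrophages of meninges and perivascular spaces, r was 0.796 (0.801 with group means removed, 0.738 without the 2 farthest, 0.867 without AAV-SIRT3 replicate 6). For homeostatic microglia it was 0.154 (0.290 with group means removed). For activated microglia it was 0.300, and 0.236 without AAV-SIRT3 replicate 6. With group means removed it was 0.670 over the 18 libraries, so within groups these genes varied with the 4 class II genes more than the pooled value shows. How far that 0.670 rests on AAV-SIRT3 replicate 6 was not tested. Summed levels of the leptomeningeal list ran from 61550 to 109400 normalised reads in intact, 51050 to 114100 in AAV-GFP and 47450 to 115500 in AAV-SIRT3 libraries, and none of its 16 genes was at 0 in all libraries. These sums are mostly Ptgds, which stood at 49090 in intact replicate 2 and 39230 in AAV-SIRT3 replicate 4. They say little about the other genes of the list. It had 0 of 16 genes called between AAV-GFP and intact, 1 called lower between AAV-SIRT3 and intact (6 lower without AAV-SIRT3 replicate 6), and 0 between AAV-SIRT3 and AAV-GFP. The border macrophage list ran from 2259 to 3285, 2201 to 3328 and 2352 to 2871, with 0 of 11 tested genes called in each comparison. Its sums are led by Cd38 and Stab1, with means of 1148 and 724 normalised reads over all libraries. Lyve1 and Pf4 averaged 51.35 and 42.32, so the sums say little about them. The part of meningeal tissue in the class II values was not tested.

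**Figure D4:**
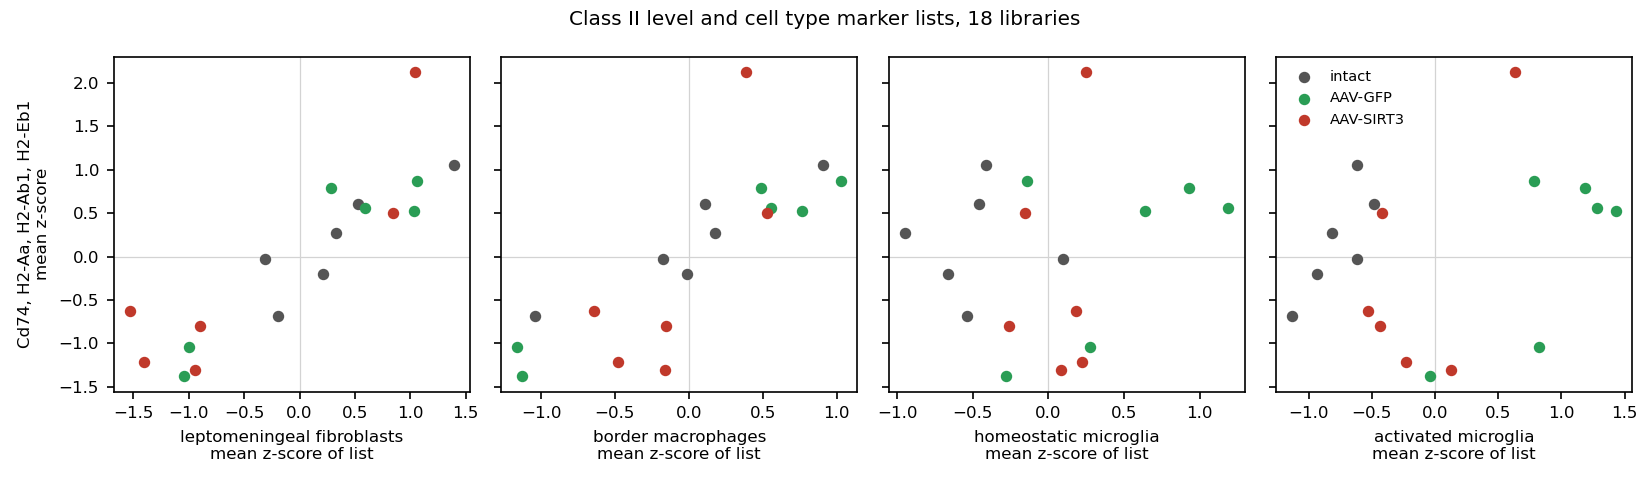
Mean z-score of Cd74, H2-Aa, H2-Ab1 and H2-Eb1 (y axis) against the mean z-score of 4 marker lists (x axes) in 18 libraries, with groups marked by colour. The points follow a line for leptomeningeal fibroblasts (r = 0.886) and border macrophages (0.796), with AAV-SIRT3 replicate 6 above it, and are more scattered for homeostatic microglia (0.154) and activated microglia (0.300, or 0.670 with group means removed).

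Lists of other immune cells were read in the same way. The dendritic cell list summed to 2781 to 3252 normalised reads in intact, 2786 to 3098 in AAV-GFP and 2688 to 2939 in AAV-SIRT3 libraries. It was led by Flt3 and Cd24a. Its defining genes differed widely in level: Zbtb46 averaged 377.7, Clec9a 18.88 and Batf3 16.08, while Xcr1 and Ccr7 averaged 0.591 and 0.847. Of its 11 genes 8 were tested and 0 were called in any comparison, and its score had an r of 0.279 with the 4 genes. The monocyte and neutrophil list summed to 146.9 to 283.6, 134.5 to 348 and 167.7 to 474.8 normalised reads, with 4 of 10 genes tested and 0 called. Its r with the 4 genes was 0.644 and its rho 0.694 (r of 0.660 with group means removed, 0.603 without the 2 farthest libraries and 0.688 without AAV-SIRT3 replicate 6). Of the T cell list 6 of 12 genes reached testing, 0 were called, and r was 0.0126. The B cell gene Ms4a1 averaged at most 1.67 normalised reads in any group, and Pax5, a B cell transcription factor, was lower in AAV-GFP than in intact mice (-1.28, limma adjusted p = 0.0206). Igkc, an immunoglobulin light chain gene, stood at 5349 in AAV-SIRT3 replicate 6, the library with the highest class II values, and at 865 or below in the other 17. For the whole B and plasma cell list the summed level ran from 1124 to 2845 in intact, 840.7 to 1315 in AAV-GFP and 1062 to 7621 in AAV-SIRT3 libraries, and its r with the 4 genes was 0.571 (0.716 with group means removed) and 0.348 without AAV-SIRT3 replicate 6. The part of these cells in that library's values was not tested.

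The rest of the class II pathway was read from lists of named genes. Among 4 tested class II chains outside the 7 (H2-DMb2, H2-Oa, H2-Ob and H2-Eb2), 0 were called in any comparison, and their group means ran from 6.717 to 37.77 normalised reads. Among 11 genes of class II processing, 4 were higher in AAV-GFP than in intact mice: Ctss, the cathepsin that trims the invariant chain (0.51), Ctsd (0.27) and Ctsz (0.41), further cathepsins, and the endosomal tetraspanin Cd63 (0.25). In AAV-SIRT3 against intact mice 4 were higher, Ctss (0.45), Ctsb (0.11), Ctsd (0.17) and Ctsz (0.26), and 1 without AAV-SIRT3 replicate 6. Ctss stood at 4419, 6333 and 6062 normalised reads on average in intact, AAV-GFP and AAV-SIRT3 mice, so the cathepsin rose in both AAV groups while its substrate Cd74 was not called in either. None of the 11 was called between AAV-SIRT3 and AAV-GFP. The shares of all genes called higher against intact mice were 0.823% with AAV-GFP and 11.3% with AAV-SIRT3.

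Of 11 genes of class II transcription other than Ciita, Irf8, a transcription factor of myeloid cells, was higher in AAV-GFP (0.47) and AAV-SIRT3 (0.45) than in intact mice. Rfx5, a subunit of the complex that binds the X box, was lower in AAV-SIRT3 than in intact mice (-0.24, limma adjusted p = 0.00455), and Rfxap, its partner, was higher (0.15, limma adjusted p = 0.0410). The Rfxap call lay near the threshold and was lost in 8 of 18 fits that left out 1 library, among them that without AAV-SIRT3 replicate 6 (adjusted p = 0.0718), and in 7 of 14 other settings. The Rfx5 call was lost in 1 of these settings, with the thalamic score as a covariate. The Irf8 call in AAV-SIRT3 against intact mice was lost in 0. The Irf8 call in AAV-GFP against intact mice was lost in some of these fits, among them that without intact replicate 5. The other 8 were not called. Cd86, a costimulatory ligand of antigen-presenting cells, was higher in AAV-GFP (0.67) and AAV-SIRT3 (0.52) than in intact mice, as the only one of 5 tested costimulation genes called. Over all genes, 1.84% were called in AAV-GFP and 21.7% in AAV-SIRT3 against intact mice. In the latter comparison the transcription and costimulation lists had calls near the share of all genes. Ifng, the cytokine known to induce Ciita, averaged at most 0.655 normalised reads in any group and was not tested.

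Activated microglia, MHC class I and type I interferon genes had calls as well, though not in the same comparisons. Over all genes, 0.823% were called higher in AAV-GFP and 11.3% in AAV-SIRT3 against intact mice. Of 12 genes of activated microglia, 10 were higher in AAV-GFP than in intact mice, among them Itgax (2.80), Clec7a (2.59) and Cst7 (4.51), and 7 in AAV-SIRT3 than in intact mice (4 without AAV-SIRT3 replicate 6). The same comparison with AAV-GFP had 0 of 7 class II genes called. Of 12 genes of MHC class I and its peptide loading, 0 were called in AAV-GFP against intact, and 6 were higher in AAV-SIRT3 against intact: H2-K1 (0.51), H2-D1 (0.63) and B2m (0.53), which form the class I molecule, Nlrc5 (0.82), the class I counterpart of Ciita, and the immunoproteasome subunits Psmb8 (0.65) and Psmb9 (0.72). Nlrc5 averaged 56.92, 70.87 and 107.4 normalised reads in intact, AAV-GFP and AAV-SIRT3 mice, while Ciita averaged 71.66, 70.47 and 47.61. Without AAV-SIRT3 replicate 6, 5 of the class I genes were called. Of 12 type I interferon genes 0 were called in AAV-GFP against intact, and 9 were higher in AAV-SIRT3 than in intact mice (8 without AAV-SIRT3 replicate 6). In AAV-SIRT3 against AAV-GFP 2 were higher, Ifit3 (1.03) and Oasl2 (1.22), and 0 class I genes were called. Both calls had a limma adjusted p of 0.0487 and were lost in 13 of 18 fits that left out 1 library and in 4 of 14 other settings. Of the activated microglia genes, Clec7a (-1.67) and Gpnmb (-2.08) were lower in AAV-SIRT3 than in AAV-GFP mice. AAV-SIRT3 replicate 6 was also the highest library for H2-K1 (4707 normalised reads) and Ifit3 (2551). For the class I list, r with the 4 genes Cd74, H2-Aa, H2-Ab1 and H2-Eb1 was 0.648. It was 0.893 with group means removed and, with group means kept, 0.417 without AAV-SIRT3 replicate 6. For the type I interferon list these values were 0.404, 0.787 and -0.0787. Whether these lists differ from the class II genes was not tested.

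**Figure D5:**
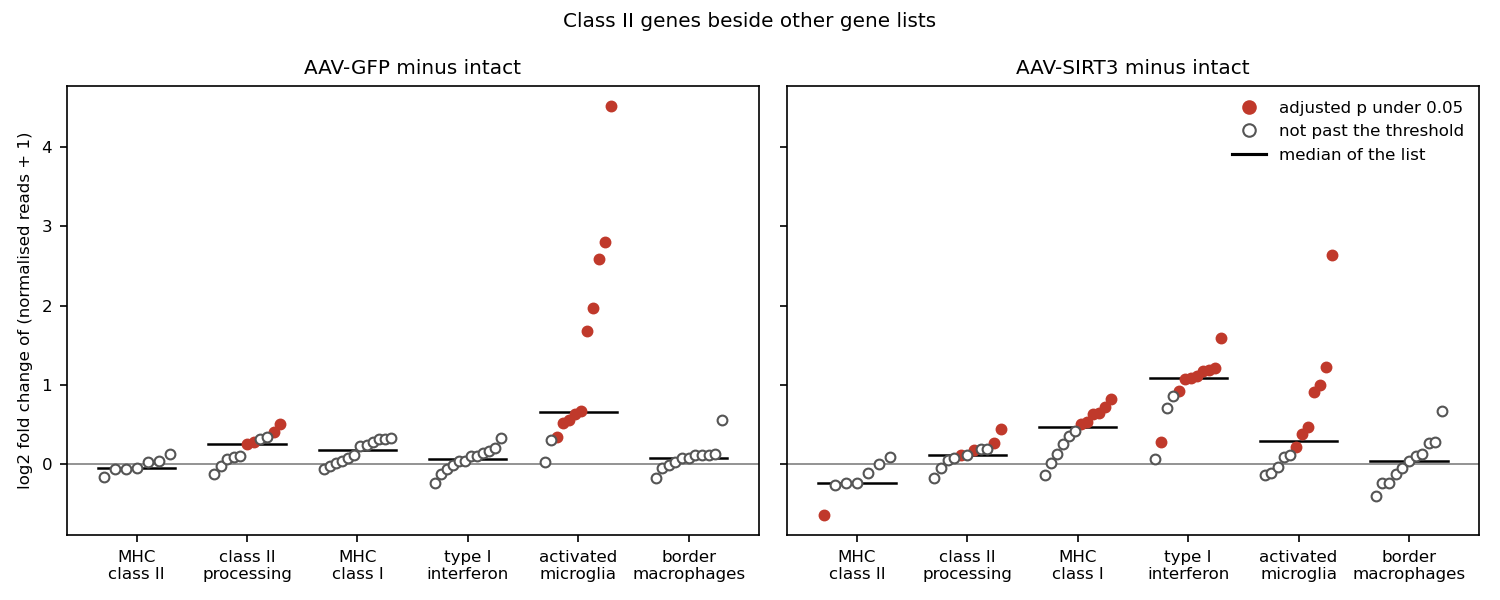
Log2 fold change of normalised reads plus 1 (y axis) for the tested genes of 6 lists (x axis), in AAV-GFP (left) and AAV-SIRT3 (right) against intact mice; filled points passed an adjusted p of 0.05, open points did not, and lines are list medians. Of the class II genes 0 are filled on the left and 1, Ciita, lies below 0 on the right, while 10 of 12 activated microglia genes on the left and 9 of 12 type I interferon and 6 of 12 class I genes on the right are filled above 0.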

How the data were processed

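Values came from a table of 18 columns, 1 per library, each matched to a sample by its description, with 0 unmatched. Per its name, the deposited signal is HTSeq counts normalised by the authors with DESeq2. HISAT2 2.1.0, DESeq2 1.34.0 and mm10 are listed in the submitters' processing notes; annotation and strand setting are not given in the sources used here. Each column was whole reads divided by 1 size factor (100% whole, tolerance 0.0001). For intact replicate 4 and AAV-SIRT3 replicate 4 that factor was near 1, a weaker proof.

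Genes were tested when 6 or more libraries reached a value of 10. Tests used limma 3.58.1 (R 4.3.3) on log2 of the value plus 1, which understates changes of low genes. A single fit held the 3 groups, with 15 residual degrees of freedom, a variance trend and Benjamini-Hochberg adjustment over 19443 genes. It was tested on simulated counts with 1 spread setting for all genes. The wide spread of Cd74 and the 3 chain genes was not simulated, so that test does not cover them. The limma p-values set a difference between groups against the spread between libraries of the same group. Those of gene pairs come from permuting the 18 libraries. Replicates differed by more than sampling noise (chi-square per degree of freedom 8.27 to 36.6). Counting errors cover counting alone. Recovered reads were also tested with edgeR 4.0.16 and DESeq2 1.42.0.

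The class II genes and the lists were chosen with earlier results of these data known, and the leptomeningeal list after seeing values. Named are the 7 class II genes, Sirt3, list genes past the threshold or defining a cell type, and the genes most like the 7 by Pearson r. Figures and scores use z-scores over 18 libraries. Other settings changed normalisation, pseudocount, filter, the libraries fitted, a replicate block, weights and covariates.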

Additional observations from a re-analysis of the deposited data

Results flagged for a closer look

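Cd74 in AAV-SIRT3 replicate 6 stood far from the rest of its group. Its value was 1159 normalised reads, the next of the 6 libraries was 535.3, and the gap was 0.719 of the group's range, above Dixon's 95% critical value for 6 samples. This was 1 of 45 groups examined (7 class II genes and 8 like them in 3 groups), where 2.25 would be expected by chance.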

How the results depend on the processing

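No setting called any class II gene other than Ciita, and the number called stayed at 0 of 7 where AAV-GFP mice were set against either other group. For AAV-SIRT3 against intact it was 0 in place of 1 with quantile normalisation, no filter, 2 groups in the fit, the replicate block, the thalamus score, edgeR and the leptomeningeal score, and 0 to 1 with 1 library left out. The Ciita call was lost without intact replicates 1, 2, 3, 4 or 6, AAV-GFP replicates 1, 3 or 4, or AAV-SIRT3 replicates 1, 3, 4 or 5; the cause was not tested, but each such fit has fewer samples. Leaving out AAV-SIRT3 replicate 6 and intact replicate 5 together, and the leptomeningeal score, were chosen after seeing the data.

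Over all genes, calls between AAV-GFP and intact went from 358 to 164 with no filter, 199 with 2 groups, 39 with the thalamus score (36 of them higher), 638 with array weights, 1000 in DESeq2, 223 without both libraries, 711 with the leptomeningeal score, and from 129 (intact replicate 3 left out) up to 686 (AAV-GFP replicate 1 left out) with 1 library fewer. Between AAV-SIRT3 and intact they went from 4214 to 1745 with the thalamus score, 2762 without both libraries, and 3279 to 4633 with 1 left out. Between AAV-SIRT3 and AAV-GFP they went from 22 to 8 with 2 groups, 13 with the replicate block, 121 with array weights, 304 in DESeq2, 48 with the leptomeningeal score, and from 5 (AAV-SIRT3 replicate 5 left out) up to 861 (AAV-GFP replicate 2 left out) with 1 library fewer.

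The sign of differences near 0 changed in several settings, with none called and the cause not tested. With the thalamus score, the log2 differences from intact became 0.47, 0.42 and 0.21 for H2-Aa, H2-Ab1 and H2-Eb1 in AAV-GFP mice, and 0.32, 0.32, 0.28, 0.16 and 0.31 for Cd74, H2-Aa, H2-Ab1, H2-Eb1 and H2-DMb1 in AAV-SIRT3 mice. With the leptomeningeal score they became 0.035 and 0.043 for H2-Aa and H2-Ab1 in AAV-GFP, 0.29, 0.21, 0.21, 0.15 and 0.16 for those 5 genes in AAV-SIRT3, and 0.18, 0.17, 0.17, 0.24 and 0.090 in AAV-SIRT3 against AAV-GFP mice. Without both libraries H2-Aa and H2-Ab1 stood at 0.053 and 0.041 in AAV-GFP, and with array weights Cd74 at -0.020. Against intact in AAV-SIRT3, Cd74 was 0.010 in edgeR and 0.020 in DESeq2, and H2-DMb1 0.065 with quantile normalisation, 0.00054 in edgeR and 0.0069 in DESeq2. H2-DMb1 was also -0.00096 in edgeR for AAV-GFP against intact, and 0.018 with quantile normalisation, 0.0015 in edgeR and 0.0032 in DESeq2 for AAV-SIRT3 against AAV-GFP.

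With 1 library left out, signs also changed. The range was, in the AAV-GFP comparison with intact mice, -0.069 to 0.17 for Cd74, -0.20 to 0.11 for H2-Aa, -0.15 to 0.084 for H2-Ab1, -0.28 to 0.0055 for H2-Eb1, -0.062 to 0.14 for H2-DMb1 and -0.17 to 0.038 for Ciita. In the AAV-SIRT3 comparison with intact mice it was -0.38 to 0.019 for Cd74 and -0.11 to 0.10 for H2-DMb1. Between both AAV groups it was -0.43 to 0.024 for H2-Ab1, -0.31 to 0.088 for H2-Eb1, -0.099 to 0.0059 for H2-DMa and -0.14 to 0.059 for H2-DMb1.

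The replicate numbers do not pair mice by the labels. Deviations from group means of same-numbered libraries correlated at -0.0953 to 0.175 over 18 pairs, 1 of them above 0.1. With the replicate block Ciita against intact had a limma adjusted p of 0.0812. Depth limits Ciita most, with 23 reads in its lowest library.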
